A study of Mus musculus with 15 samples.

Results

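Male wild-type C57BL/6J mice, 8 weeks old, breathed the vapour of acetophenone and decanal that had been mixed on a single filter paper (the A+D group, 3 libraries), and were set against mice given empty filter papers (the Control group, 3 libraries). These 6 libraries, A+D 1 to 3 and Control 1 to 3, are part of a series of 15 libraries in 5 groups of 3, and all genes were examined in them. The A+D papers carried 10 µL of each odorant, 20 µL in all. Every mouse was housed alone in an odour-free container for 4 h before an exposure of 90 min, and the olfactory epithelium was taken at once. What was sequenced is not total RNA but the messenger RNA pulled down with an antibody against phosphorylated ribosomal protein S6 (pS6). A further 2 groups serve as comparisons: A&D mice received acetophenone and decanal on separate papers about 1 mm apart, and octanal with cis-3-hexenol went on a single paper in O+C. No group received acetophenone or decanal alone, so a response to the mixture cannot be assigned to either odorant. Each library is taken here as 1 mouse, since the labels speak of biological replicates without saying whether animals were pooled.

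Each mature olfactory sensory neuron transcribes a single odorant receptor gene out of a very large family, and an odorant excites the neurons whose receptors it binds. Excitation raises cyclic AMP through the G protein Golf, opens a cyclic nucleotide-gated channel and depolarises the cell. Ribosomal protein S6 is phosphorylated in active neurons, so a pS6 precipitate holds relatively more RNA from cells that were active, and the receptor transcript reports which kind of neuron a cell was. Acetophenone is an aromatic ketone with a sweet, orange-blossom smell for which several mouse receptors are known, and decanal is a straight-chain aldehyde of citrus peel. In such bulk precipitates, fewer precipitated cells of a type and less RNA per cell cannot be told apart.

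The A+D libraries held 22704177 to 24181553 counts, the Control libraries 23313591 to 24310136. Of 57010 genes listed, 19229 had enough counts to be tested. Among 1107 intact odorant receptor genes 866 were tested. Omp, the marker of mature olfactory sensory neurons, stood at 5113 to 6187 CPM (counts scaled to a common library size) in A+D and at 4205 to 4925 CPM in Control, so the labelled tissue carried its defining marker. Within these 6 libraries a pair stood apart. Obp2a, an odorant binding protein of the nasal glands, had 1.59 CPM in A+D 2 against 328 and 388 CPM in the other A+D libraries, and 0.162 CPM in Control 1 against 126 and 247 CPM in the other Control libraries. A+D 2 also had the highest share of cytosolic ribosomal protein counts of all 15 libraries, 2.15%, and the lowest mean correlation with the others, 0.958. Results are therefore also given without A+D 2 and Control 1. Obp2a was also low in libraries of other groups. Among them was A&D 1, with 1.58 CPM against 525 and 231 CPM in the other A&D libraries.

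In A+D, 57 genes were higher than in Control and 5 were lower by edgeR's quasi-likelihood test with Benjamini-Hochberg adjustment over all tested genes at a threshold of 0.05, which is 0.296% and 0.026% of the genes tested, or 0.322% in either direction. Odorant receptors made up most of the higher genes. Of the 866 receptors tested 46 rose (5.31%) and none fell. At an unadjusted p below the same threshold 99 receptors were higher and 36 lower, and DESeq2 called 63 higher and 1 lower. Over all 19229 genes tested 1576 were higher and 1055 lower at an unadjusted p below the threshold, and DESeq2 called 133 higher and 102 lower. Such counts for single lists against Control, given below, are to be read beside these. The 46 that rose had a median log2 fold change of 2.19, and 45 of them were more than 2-fold, 30 more than 4-fold and 13 more than 8-fold above Control. The 820 receptors that were not called had a median of -0.09, beside 0.02 over all genes. A further 4 receptor pseudogenes and 7 other genes rose. Leaving out A+D 2 and Control 1 together gave 35 receptors higher and none lower, 34 of them among the 46.

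**Figure D1:**
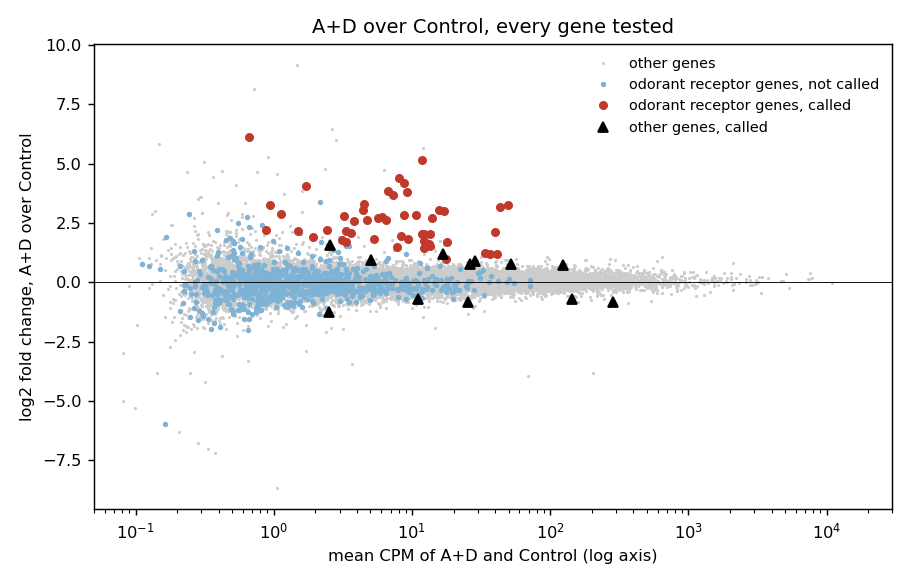
Log2 fold change of A+D over Control (vertical axis) against the mean CPM of both groups (horizontal log axis) for all 19229 tested genes, 1 point each. The called receptor genes, intact ones and pseudogenes (red), lie above the cloud at log2 values of 0.99 to 6.13, while the called other genes (black triangles) lie between -1.28 and 1.58.

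From a list of mouse receptors reported for acetophenone, 4 were among the receptors that moved most. Olfr923 had 28.2, 12.05 and 29.2 CPM in A+D, against 0.606, 0.798 and 0.537 CPM in Control. Every A+D library lay far above every Control library, with A+D 2 the lowest of the exposed mice, and the log2 fold change was 5.15 ± 0.41 (SE; edgeR adjusted p = 2.69e-06). Olfr1377 had 12.9, 11.6 and 21.8 CPM in A+D, against 0.404, 0.997 and 0.785 CPM in Control, and rose by 4.396 ± 0.39 on the log2 scale (edgeR adjusted p = 5.31e-06). Olfr145 had 8.27, 11.2 and 18.6 CPM in A+D and 0.606, 0.558 and 1.45 CPM in Control, and rose by 3.86 ± 0.48 (edgeR adjusted p = 0.000554). Olfr983 was more even, with 25.2, 24.4 and 34.7 CPM in A+D and 3.64, 3.19 and 3.31 CPM in Control, and rose by 3.06 ± 0.21 (edgeR adjusted p = 1.86e-07). In none of these 4 receptors did the groups overlap. Without A+D 2 and Control 1 together Olfr145 narrowly missed the threshold (3.74, edgeR adjusted p = 0.0548), while the other 3 stayed called.

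Olfr160, also called M72 and long used as an acetophenone receptor, had 3.02, 2.83 and 4.28 CPM in A+D, against 0.687, 0.997 and 1.40 CPM in Control. Its groups did not overlap either, but its log2 fold change of 1.71 ± 0.39 missed the threshold (edgeR adjusted p = 0.0806). It was called by DESeq2, and by edgeR when A+D 1 was left out (adjusted p = 0.0361). Without other single libraries its edgeR adjusted p reached 0.406. Olfr151, or M71, had too few counts to be tested. So 4 of the 5 tested receptors of the acetophenone list rose, with a median log2 fold change of 3.86 over the 5, beside 0.02 over all genes. The list was written from reports on this odorant with results of these data already known, and is no independent evidence.

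Olfr51 had the largest fitted fold change of the called receptors and the thinnest data. It had 1.30, 1.55 and 1.06 CPM in A+D, and no count in Control 1 and Control 2 and 0.0413 CPM in Control 3. That is 92 counts in the A+D libraries and 1 in the Control libraries, a ratio of 93.0 whose exact 95% interval of 16.3 to 3712 covers counting error only. The groups did not overlap, and the fitted log2 value was 6.13 ± 0.88 (edgeR adjusted p = 0.00106).

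The 15 called receptors of largest rise with no overlap between the groups include 10 that were not on the acetophenone list and are not Olfr51. Olfr1047 had 2.69, 3.06 and 4.00 CPM in A+D, against 0.0808, 0.199 and 0.289 CPM in Control, a log2 fold change of 4.06. Olfr1026 had 12.8, 14.3 and 24.9 CPM in A+D, against 0.687, 1.71 and 1.32 CPM in Control, a log2 fold change of 3.80. Olfr874 had 14.9, 9.21 and 16.3 CPM in A+D, against 1.09, 0.718 and 1.32 CPM in Control, a log2 fold change of 3.68. All 3 were below 2 CPM in each Control mouse and above it in each exposed mouse.

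A smaller set carried far more counts. Olfr287 had 89.1, 96.2 and 84.7 CPM in A+D, against 11.1, 10.2 and 7.27 CPM in Control (log2 fold change 3.24 ± 0.18, edgeR adjusted p = 6.34e-09). Olfr1368 had 68.0, 79.7 and 86.9 CPM in A+D, against 8.32, 8.54 and 8.96 CPM in Control (3.18 ± 0.16, edgeR adjusted p = 5.06e-09). For both, the spread within each group was small beside the gap between them. Olfr455 had 48.0, 70.9 and 54.6 CPM in A+D and 23.1, 25.5 and 27.3 CPM in Control, a log2 fold change of 1.19. Olfr1349 had 51.9, 44.5 and 57.5 CPM in A+D and 23.2, 26.0 and 17.9 CPM in Control, a log2 fold change of 1.20. Olfr136 had 49.1, 43.9 and 47.9 CPM in A+D and 17.6, 27.8 and 15.4 CPM in Control, a log2 fold change of 1.21. These last 3 had smaller fold changes than the receptors above, and again no A+D library fell within the Control range.

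The rest of the 15 were Olfr876 (log2 fold change 3.31), Olfr922 (3.23), Olfr744 (3.03), Olfr890 (2.86) and Olfr901 (2.84). Olfr876 had 0.0404 CPM in Control 1 and 1.44 and 0.992 CPM in the other Control libraries, so its Control mean rests on unequal libraries. Olfr890 had 1.72, 2.79 and 1.47 CPM in A+D, against 0.0404, 0.439 and 0.331 CPM in Control, and its call (edgeR adjusted p = 0.0394) was lost when any 1 library other than A+D 1 was left out, with adjusted p up to 0.179. Among the 46, 36 stayed called whichever of the 6 libraries was left out. The other 10 were Olfr479, Olfr218, Olfr1349, Olfr904, Olfr478, Olfr55, Olfr775, Olfr890, Olfr136 and Olfr1383, whose largest adjusted p without a library lay between 0.0695 for Olfr1349 and 0.233 for Olfr218. Olfr55 had 6.63, 20.9 and 16.2 CPM in A+D and 3.84, 4.67 and 3.88 CPM in Control, and its call was lost when any library other than A+D 1 was left out, with adjusted p up to 0.138. Close to the threshold, Olfr338 was outside it with 2.50 on the log2 scale (edgeR adjusted p = 0.0531), and Olfr218 inside it with 2.60 (0.0312).

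**Figure D2:**
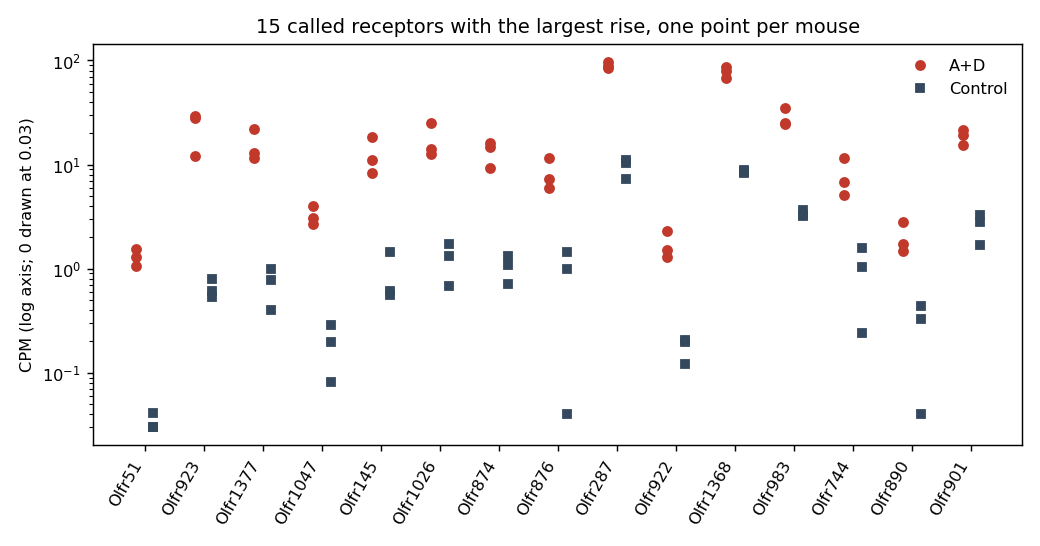
CPM on a log axis for the 15 called receptors of largest rise, in order of their log2 fold change; each red circle is an A+D mouse and each dark square a Control mouse, and counts of 0 are drawn at 0.03. Receptors were picked for having no overlap, so all A+D points lie above all Control points by selection. The A+D points run from about 1 CPM for Olfr51 to 68.0 to 96.2 CPM for Olfr287 and Olfr1368.

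Receptors that rose often had relatives that rose. The MOR nomenclature groups mouse receptors into families by sequence, and the 45 called receptors with a family number came from 23 of the 206 families with a tested receptor. A total of 34 of the 45 came from 12 families with 2 or more called receptors. MOR161 had 4 of 6 tested members called (Olfr874, Olfr922, Olfr145 and Olfr876), MOR162 had 4 of 7 (Olfr983, Olfr901, Olfr889 and Olfr890), and MOR129 had both of its tested members (Olfr1377 and Olfr51). MOR106 had 4 of 13 called, Olfr745, Olfr749, Olfr740 and Olfr744. MOR256, a large family, had 4 of 43 called, Olfr1368, Olfr117, Olfr136 and Olfr1383, and a median log2 fold change of -0.19 over its tested members. The closest relative by coding sequence was itself called for 19 of 44 called receptors (43.2%) and for 34 of 764 uncalled ones (4.45%). This is a description, without a test, since relatives share sequence and can share reads.

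Relationship did not fix the outcome in A+D. Olfr874 (3.68) and Olfr875 share 95.6% of 933 aligned coding bases and lie next to each other in gene order. Olfr875 had 0.629, 0.487 and 0.653 CPM in A+D, against 1.17, 1.16 and 0.950 CPM in Control, which gave -0.88 on the log2 scale and did not pass the test (edgeR adjusted p = 0.339). With the odorants on separate papers, in A&D, Olfr875 had 3.46, 2.28 and 1.75 CPM, above every Control library. Olfr874 had 27.7, 24.3 and 17.1 CPM there. Both thus lay above Control in A&D, Olfr874 by far more, and no test of A&D against Control is given here. Olfr1377 (4.396) and Olfr51 (6.13), also neighbours, share 89.2% of 924 bases and both rose in A+D. The first 90 coding bases of both pairs were taken from the GENCODE M21 transcripts (build GRCm38) and read on the coding strand from the start codon. Capitals mark the bases that differ within a pair: 4 of 90 in the pair that parted in A+D and 23 of 90 in the pair that rose together.
Olfr874: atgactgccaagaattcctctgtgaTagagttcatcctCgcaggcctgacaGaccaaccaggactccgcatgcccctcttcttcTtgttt
Olfr875: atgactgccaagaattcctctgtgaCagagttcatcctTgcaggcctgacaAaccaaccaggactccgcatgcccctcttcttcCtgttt
Olfr1377: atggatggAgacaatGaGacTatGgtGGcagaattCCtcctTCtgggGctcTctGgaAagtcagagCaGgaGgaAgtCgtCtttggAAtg
Olfr51: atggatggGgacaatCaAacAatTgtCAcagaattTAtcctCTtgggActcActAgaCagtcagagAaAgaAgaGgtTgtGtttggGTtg
These 4 genes had whole-number counts in most libraries, so the pairs were not sharing reads to an extent visible in the estimated counts. Other close pairs parted as well. Olfr749 rose (2.02) while Olfr747, 98.5% identical, had 0.08, and Olfr55 rose (1.82) while Olfr239, 98.8% identical, had 0.13. Olfr749 and Olfr55 had fractional estimated counts, as arise when reads are divided among similar genes, so their values are uncertain.

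**Figure D3:**
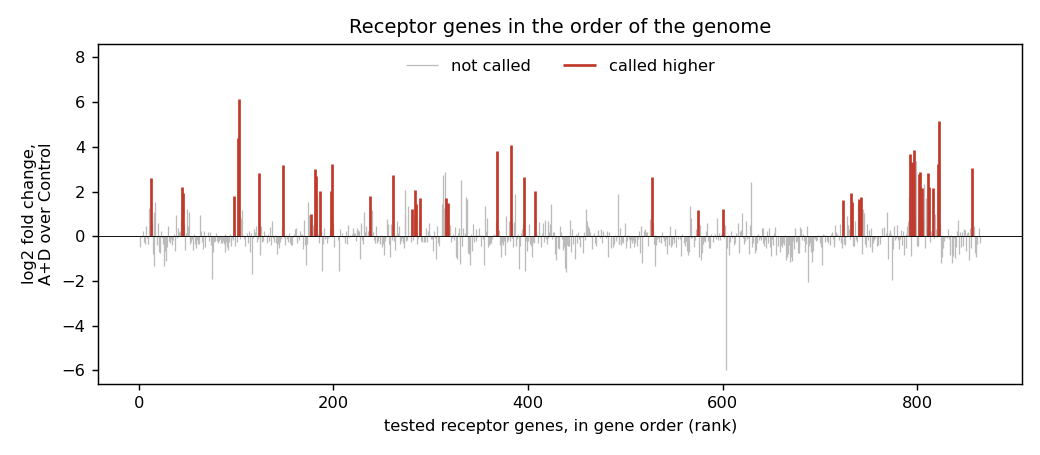
Log2 fold change of A+D over Control (vertical axis) for 865 tested receptor genes placed in gene order along the genome (horizontal axis, rank). Red lines are the 46 called receptors and grey lines the others; the densest run of red lies between Olfr874 and Olfr923, and the deepest grey line, at -5.99, is Olfr290, which had no counts in A+D and 0.242 to 0.454 CPM in Control and was not called.

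Position in the genome showed the same grouping. An adjacent tested receptor was called for 18 of the 46 called receptors (39.1%) and for 66 of the uncalled ones (8.06%). These 18 formed 9 adjacent pairs, among them Olfr922 with Olfr923, Olfr889 with Olfr890, Olfr744 with Olfr745, Olfr287 with Olfr288 and Olfr775 with Olfr776. The stretch from Olfr874 to Olfr923, singled out after its values were seen, held 30 tested receptors of which 11 rose (36.7%), with log2 fold changes of 2.15 to 5.15; of the 835 placed receptors outside it 35 rose (4.19%). Its uncalled members included Olfr881, which had 4.36, 0.930 and 6.49 CPM in A+D and 0.323, 0.518 and 0.289 CPM in Control (log2 fold change 3.36, edgeR adjusted p = 0.106).

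The receptors that rose were all but 1 of class II, the larger class of mammalian receptors that arose with life on land. Of 760 class II receptors tested 45 rose and none fell. None of the 86 tested class I receptors, the fish-like class, was called by edgeR. At an unadjusted p below the threshold 3 class I receptors were higher and 6 lower, and DESeq2 called 2 higher. The class I receptors had a median log2 fold change of -0.27, beside -0.03 for class II. Olfr455, for which no class was assigned, was the remaining called receptor. None of the 5 tested trace amine-associated receptors, a separate family of amine receptors, was called by edgeR or DESeq2, and none had an unadjusted p below the threshold.

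The share of all counts taken by intact receptors was 0.386% ± 0.0595 in A+D and 0.341% ± 0.0292 in Control (SD, n = 3 each), a difference of 0.0444 percentage points (exact two-sided permutation p = 0.3, where 0.1 is the smallest possible, so that this design cannot reach the threshold). A+D 2 had 0.320%, against 0.402% and 0.435% in the other A+D libraries. The groups overlapped through A+D 2, and without it the difference was 0.0774 percentage points. The 46 called receptors, chosen on these same libraries, made up 19.0% to 25.1% of the receptor counts in A+D and 5.57% to 6.22% in Control.

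Of 48 tested receptor pseudogenes, copies whose reading frame is broken, 4 rose and none fell. At an unadjusted p below the threshold 5 were higher and 1 lower, and DESeq2 called 4 higher and none lower. Olfr1326-ps1 had 73.5, 48.6 and 72.2 CPM in A+D, against 14.0, 13.1 and 17.7 CPM in Control (log2 fold change 2.11 ± 0.22, edgeR adjusted p = 3.9e-05). Olfr766-ps1 had 6.00, 16.9 and 27.0 CPM in A+D, against 0.768, 1.28 and 0.661 CPM in Control (4.19 ± 0.53, edgeR adjusted p = 0.00116). Olfr718-ps1 (2.98) and Olfr1025-ps1 (2.72) were the remaining ones. All 4 stayed called whichever single library was left out, but without A+D 2 and Control 1 together Olfr766-ps1 and Olfr718-ps1 were lost (edgeR adjusted p = 0.210 and 0.152). Fractional counts in the majority of libraries, as given above for Olfr749 and Olfr55, were also found for Olfr766-ps1 and Olfr718-ps1 and for 14 of the 46 receptors in all. The others of these 14 were Olfr287, Olfr288, Olfr376, Olfr1283, Olfr1383, Olfr1426, Olfr1477, Olfr1484, Olfr716, Olfr479, Olfr136 and Olfr740, and how far reads shared with another gene move their values was not determined.

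Outside the receptor family few genes moved, and by less. Of 18315 other genes 7 rose and 5 fell. Heg1, a transmembrane protein known from blood vessel and heart development, had 33.9, 37.3 and 40.6 CPM in A+D, against 20.8, 21.1 and 17.6 CPM in Control (log2 fold change 0.91 ± 0.14, edgeR adjusted p = 0.00269). Kcng1, a potassium channel subunit that is silent alone and modifies other subunits, had 22.8, 20.9 and 26.1 CPM in A+D, against 11.6, 11.97 and 6.73 CPM in Control (1.20 ± 0.23, edgeR adjusted p = 0.0256). Nxnl2, a thioredoxin-like protein of sensory neurons, had 55.5, 78.3 and 64.2 CPM in A+D and 37.3, 43.3 and 35.8 CPM in Control (0.77 ± 0.14, edgeR adjusted p = 0.0135). In all 3 genes every A+D library was above every Control library. The others were Ildr2 (1.58), 1110035H17Rik (0.92), Scgn (0.78), which encodes the calcium-binding protein secretagogin, and Trim45 (0.71), a ubiquitin ligase. Heg1, Trim45 and 1110035H17Rik also had fractional counts in the majority of libraries.

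Mmp13, a collagenase, had 239, 211 and 174 CPM in A+D, against 342, 433 and 325 CPM in Control, and fell by 0.82 on the log2 scale (edgeR adjusted p = 0.0181). Sfrp4, a secreted Wnt antagonist, had 123, 101 and 103 CPM in A+D and 172, 199 and 168 CPM in Control, and fell by 0.72 (edgeR adjusted p = 0.0370). Ccr1, a chemokine receptor (-0.84), Parvg, an adaptor of blood cells (-0.72), and Slc18a1, a vesicular monoamine transporter (-1.28), completed the set. In none of these 5 genes did the groups overlap. With libraries scaled on receptors alone none of the 5 passed the test. Of 16 immune cell markers 13 had a negative log2 fold change, none was called by edgeR or DESeq2, and 2 were lower at an unadjusted p below the threshold. Their summed levels of 1096 to 1564 CPM in A+D and 1404 to 2128 CPM in Control overlapped, and their part in these results was not tested.

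Among these 12 genes only Heg1 stayed called whichever library was left out; without each library in turn its largest adjusted p was 0.0317. With the 6 libraries fitted alone none of the 12 stayed called, Heg1 included. The number of other genes called depended strongly on A+D 1: without it 342 rose and 173 fell, against 1 to 5 that rose and 0 to 19 that fell without any of the other 5 libraries. Receptors moved less, to 60 higher and 3 lower without A+D 1 and 37 to 43 higher without any of the others. Leaving out A+D 2 and Control 1 together, 2 other genes rose and 2 fell, and 1 of the 12 was among them.

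Immediate early genes, the transcription factors and signalling proteins that neurons switch on within minutes of activity, did not stand out in A+D. None of the 23 was called, 8 had a positive and 15 a negative log2 fold change, and the median was -0.17, or -0.036 without Control 1. At an unadjusted p below the threshold 2 were higher and 3 lower, and DESeq2 called none higher and 1, Egr2, lower. Egr2 had 3.40, 1.99 and 2.53 CPM in A+D, against 6.14, 5.42 and 4.09 CPM in Control (log2 fold change -0.98, edgeR adjusted p = 0.180), and was called lower by edgeR without A+D 1 (adjusted p = 0.0421). Without other single libraries the edgeR adjusted p of Egr2 reached 0.531. Junb had 38.6, 36.8 and 35.5 CPM in A+D, against 50.1, 51.0 and 44.4 CPM in Control (-0.39, edgeR adjusted p = 0.227). Fos had 20.4, 35.7 and 22.5 CPM in A+D and 40.3, 52.7 and 26.2 CPM in Control (-0.60, edgeR adjusted p = 0.555). The groups of Egr2 and Junb did not overlap while those of Fos did. Over all genes 8.13% had all A+D libraries above all Control libraries and 6.72% had them all below; in this list it was 2 and 4 genes of 23. Maff, with 11.4, 19.6 and 13.4 CPM in A+D and 10.1, 9.37 and 10.9 CPM in Control (0.55, edgeR adjusted p = 0.302), was among the higher ones.

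The activity-dependent axon sorting genes are cell surface and signalling molecules whose level in a neuron depends on its receptor's activity. They take part in guiding its axon to a glomerulus. The list was not split by the direction in which activity moves each member, so a shared sign does not measure activity. All 10 had a positive log2 fold change, with a median of 0.44. In 6 of 10 the A+D libraries lay above all Control libraries, as they did in 8.13% of all genes. The same held for 6 of 18 mature and 4 of 10 immature olfactory sensory neuron markers. None of the 10 sorting genes passed the edgeR test, while 6 had an unadjusted p below the threshold. DESeq2 called 3 of the 10, Pcdh10, Kirrel2 and Kirrel3. Over all 19229 genes tested 1576 were higher at an unadjusted p below the threshold, and DESeq2 called 133 higher. Pcdh10, a protocadherin, had 15.9, 31.5 and 26.6 CPM in A+D, against 7.60, 10.1 and 4.26 CPM in Control (log2 fold change 1.75 ± 0.37, edgeR adjusted p = 0.0806). Kirrel2, a homophilic adhesion molecule, had 386, 269 and 354 CPM in A+D, against 177, 223 and 195 CPM in Control (0.76 ± 0.19, edgeR adjusted p = 0.135). S100a5, a calcium-binding protein whose transcript follows odour input, had 1932, 3491 and 2538 CPM in A+D, against 1172, 1859 and 1551 CPM in Control (0.80 ± 0.26, edgeR adjusted p = 0.258). Without A+D 1 edgeR called Pcdh10 and Kirrel3 higher, with adjusted p of 0.0330 and 0.0479, and Plxna1 (0.0378), a semaphorin co-receptor whose log2 fold change was 0.54. That setting called 407 genes higher and 176 lower over all genes. With other single libraries left out the edgeR adjusted p reached 0.326 for Pcdh10, 0.510 for Kirrel3 and 0.719 for Plxna1. Leaving out Control 1 and A+D 2 together, edgeR called none of these genes. The log2 fold change was then 0.39 for S100a5, 0.82 for Kirrel2 and 1.56 for Pcdh10.

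Markers of the neurons themselves leaned the same way. Of 18 mature olfactory sensory neuron markers 17 had a positive log2 fold change with a median of 0.21 (0.33 without A+D 2), and of 17 olfactory transduction genes 15 had one with a median of 0.19 (0.30 when A+D 2 was left out, 0.10 when it was A+D 3). These lists share members, so they are not separate observations. The summed level of the transduction genes was 5910 to 6339 CPM in A+D and 4708 to 5105 CPM in Control. None was called by edgeR, while 6 transduction genes and 7 mature neuron markers were higher at an unadjusted p below the threshold and DESeq2 called Gnal and Gng13, which stand on both lists. Gnal, the alpha subunit of Golf, had 1131, 1305 and 1277 CPM in A+D, against 918, 940 and 887 CPM in Control (0.44 ± 0.10, edgeR adjusted p = 0.0945). The summed mature neuron markers were at 11571 to 14372 CPM in A+D and 10101 to 11188 CPM in Control. The median log2 fold change of the intact receptors was -0.06 and had no stable sign (0.07 with libraries scaled on receptors alone, and 0.04 without Control 2 or without A+D 2), and the part of these lists in the receptor results was not tested.

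Supporting cells leaned the other way, with no member called by edgeR. Of 7 sustentacular cell markers 6 were lower, with a median of -0.24 (-0.15 without A+D 3) and summed levels of 4266 to 4793 CPM in A+D and 5134 to 6246 CPM in Control. Cyp2a5, a cytochrome of these cells, had fractional counts in all libraries, at 1899.5, 1849 and 1862 CPM in A+D and 2734, 2282 and 2061 CPM in Control (log2 fold change -0.34, edgeR adjusted p = 0.302). All 7 horizontal basal cell markers were lower, with a median of -0.26 (-0.16 without Control 1 and A+D 2), and all 5 Bowman gland markers, with a median of -0.20 (-0.11 without Control 1, and -0.05 without Control 1 and A+D 2). At an unadjusted p below the threshold 3 sustentacular, 1 Bowman gland and no horizontal basal cell markers were lower. DESeq2 called none of these lists' members. Globose basal cells (-0.02), ciliated cells (0.05), microvillar cells (0.03), ensheathing glia (0.01), bone, cartilage and muscle (0.01), stromal cells (-0.12) and red blood cells (0.12) had medians closer to that of all genes, 0.02. With single libraries left out the stromal median stayed negative, at -0.27 to -0.07, while the others of these lists had no stable sign, as for ensheathing glia at -0.20 when A+D 2 and 0.26 when A+D 3 was left out, and for red blood cells at -0.04 without Control 1. Immature neuron markers had a median of 0.24. None of these lists had a member called by edgeR, while 5 immature neuron markers and 1 glial marker were higher and 2 stromal markers lower at an unadjusted p below the threshold, and DESeq2 called only the stromal gene Acta2, lower. These medians shift with the scaling: with libraries scaled on receptors alone the median of all genes moved to 0.15, that of the sustentacular list to -0.10 and that of the immediate early genes to -0.06. The odorant binding proteins and gland lipocalins had 3.81 to 1015 CPM in sum in A+D and 0.727 to 833 CPM in Control, a span set by A+D 2 and Control 1, and their median of 0.95 was 0.10 without A+D 3 and 1.82 without Control 3. The immune cell median of -0.27 was -0.14 without Control 1 and -0.50 without A+D 2.

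**Figure D4:**
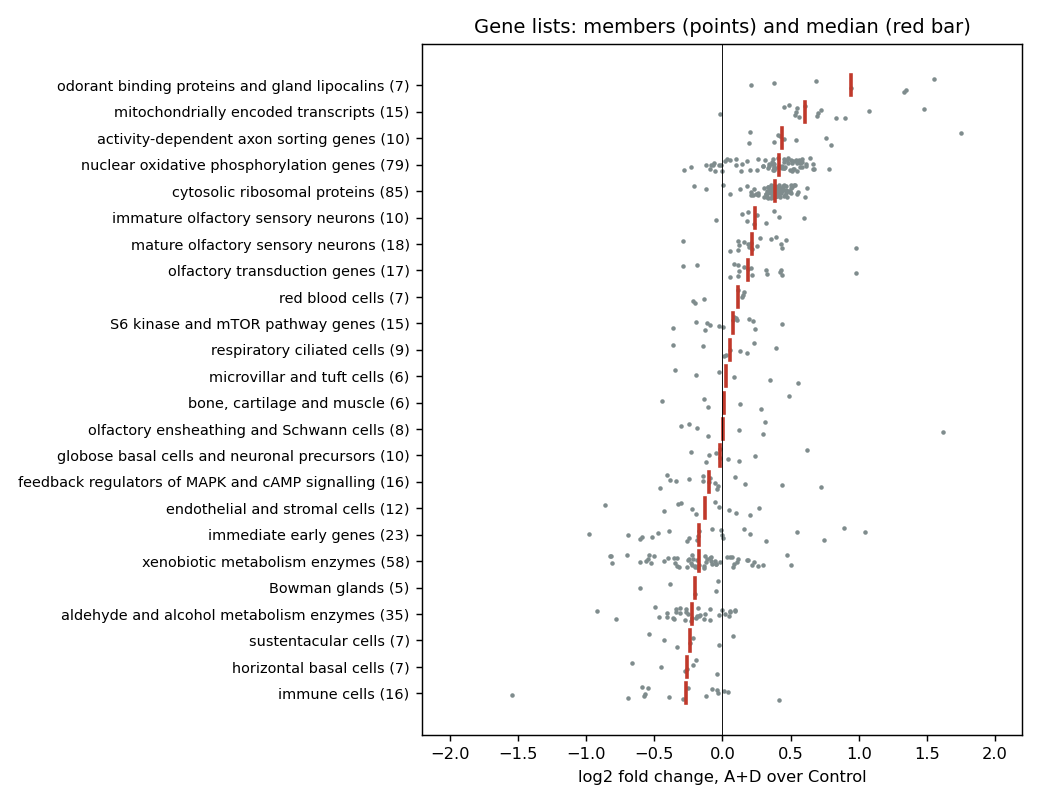
Log2 fold change of A+D over Control (horizontal axis) for the tested members of 24 gene lists (grey points, number of members in brackets) with the median of each list as a red bar; 1 member lies beyond the axis. The medians run from -0.27 for immune cells to 0.95 for the odorant binding proteins, with the neuron lists to the right of 0 and the sustentacular and basal cell lists to the left.

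The receptors that rose in A+D were set beside the same odorants delivered on separate papers and beside the other odorant pair. These comparisons share the A+D libraries with the one that chose the 46, so the counts below describe them. Against A&D, no gene was higher in A+D (0% of genes tested) and 23 were lower (0.12%), 21 of them intact receptors, by edgeR's test; 339 genes were higher and 413 lower at an unadjusted p below the threshold, and DESeq2 called 0 higher and 43 lower. Without A&D 1, the A&D library low in Obp2a, edgeR called 0 genes higher and 11 lower. Of the 46 receptors 8 were lower in A+D than in A&D with all libraries, and the median log2 difference over the 46 was -0.78. Olfr1426 had 16.3, 20.3 and 19.9 CPM in A+D, against 64.1, 69.8 and 58.4 CPM in A&D (log2 difference -1.77, edgeR adjusted p = 1.51e-05), while Control had 5.41, 5.03 and 6.69 CPM. Olfr479 had 12.8, 21.6 and 26.2 CPM in A+D, against 84.0, 81.4 and 65.8 CPM in A&D (-1.93, edgeR adjusted p = 0.00126). Olfr776 had 12.3, 12.7 and 14.5 CPM in A+D, against 33.1, 37.0 and 28.2 CPM in A&D (-1.32, edgeR adjusted p = 0.00072). In these 3 receptors, called by both tests, A+D thus lay between Control and A&D, with no overlap.

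Other receptors differed between the deliveries without having passed the test against Control. Olfr1404 had 3.86, 3.01 and 5.10 CPM in A+D, against 20.4, 15.7 and 13.7 CPM in A&D (log2 difference -2.05, edgeR adjusted p = 0.000328), and 2.51, 2.95 and 2.60 CPM in Control. Olfr1408 had 3.02, 4.52 and 4.85 CPM in A+D, against 33.3, 20.6 and 15.7 CPM in A&D (-2.49, edgeR adjusted p = 0.000778), and 1.17, 1.95 and 2.07 CPM in Control. None of the tested acetophenone receptors passed the test against A&D (edgeR adjusted p = 0.994 or more). Olfr923 had 25.4, 24.5 and 17.6 CPM in A&D (0.04), Olfr1377 had 21.3, 24.9 and 12.8 CPM (-0.35), Olfr145 had 24.5, 18.1 and 11.3 CPM (-0.50) and Olfr983 had 47.2, 34.4 and 40.4 CPM (-0.53). Olfr160 had 3.02, 2.83 and 4.28 CPM in A+D, against 7.87, 5.98 and 5.06 CPM in A&D (-0.90), and its groups did not overlap. Nr4a1, an immediate early gene, was the only gene lower in A+D that was neither a receptor nor a receptor pseudogene. It had 38.5, 33.5 and 41.0 CPM in A+D, against 78.8, 90.1 and 72.3 CPM in A&D (-1.09, edgeR adjusted p = 0.00243). Control had 43.6, 37.9 and 31.1 CPM, overlapping with A+D (log2 fold change 0.0056, edgeR adjusted p = 0.990).

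Against O+C, 63 intact receptors were higher in A+D and 80 lower, where 0.598% and 1.41% of all genes were called. Of the 46 receptors 36 were higher in A+D than in O+C, 5 were lower and 5 did not pass the test. Olfr983 had 25.2, 24.4 and 34.7 CPM in A+D, against 2.11, 2.45 and 1.24 CPM in O+C (log2 difference 3.86, edgeR adjusted p = 1.05e-08). Its Control libraries, at 3.64, 3.19 and 3.31 CPM, were all above those of O+C. Olfr874 (4.37), Olfr901 (3.89), Olfr1283 (3.98) and Olfr376 (2.78) were the other genes of smallest adjusted p that were higher in A+D. Olfr455 was among the receptors lower in A+D, with 48.0, 70.9 and 54.6 CPM, against 129, 117 and 133 CPM in O+C (-1.12, edgeR adjusted p = 0.000241). Olfr287 had 40.9, 47.0 and 66.6 CPM in O+C and Olfr1368 had 41.8, 46.5 and 44.8 CPM, both above every Control library and below every A+D library.

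Genes led by the other pair marked the opposite side. Olfr2, the classic octanal receptor, had 3.44, 4.30 and 4.49 CPM in A+D, against 19.9, 20.4 and 19.2 CPM in O+C (log2 difference -2.28, edgeR adjusted p = 2.42e-07), while Control had 3.19, 3.75 and 4.83 CPM. Olfr1364 had 12.1, 9.88 and 9.22 CPM in A+D, against 108, 153 and 103 CPM in O+C (-3.54, edgeR adjusted p = 7.34e-10). Nr4a1 had 211, 229 and 293 CPM in O+C (-2.70, edgeR adjusted p = 1.05e-08). Kcng1 had 88.7, 52.5 and 56.2 CPM in O+C (-1.50, edgeR adjusted p = 0.000951) and Heg1 had 72.7, 63.6 and 68.6 CPM (-0.87, edgeR adjusted p = 0.00166), so that both were higher in O+C than in A+D. For the pseudogenes Olfr1326-ps1 (0.06), Olfr766-ps1 (-0.08) and Olfr718-ps1 (-0.06) the log2 difference between A+D and O+C did not pass the test (edgeR adjusted p between 0.900 and 0.949), whereas Olfr1025-ps1 was higher in A+D (2.73, edgeR adjusted p = 9.41e-05).

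**Figure D5:**
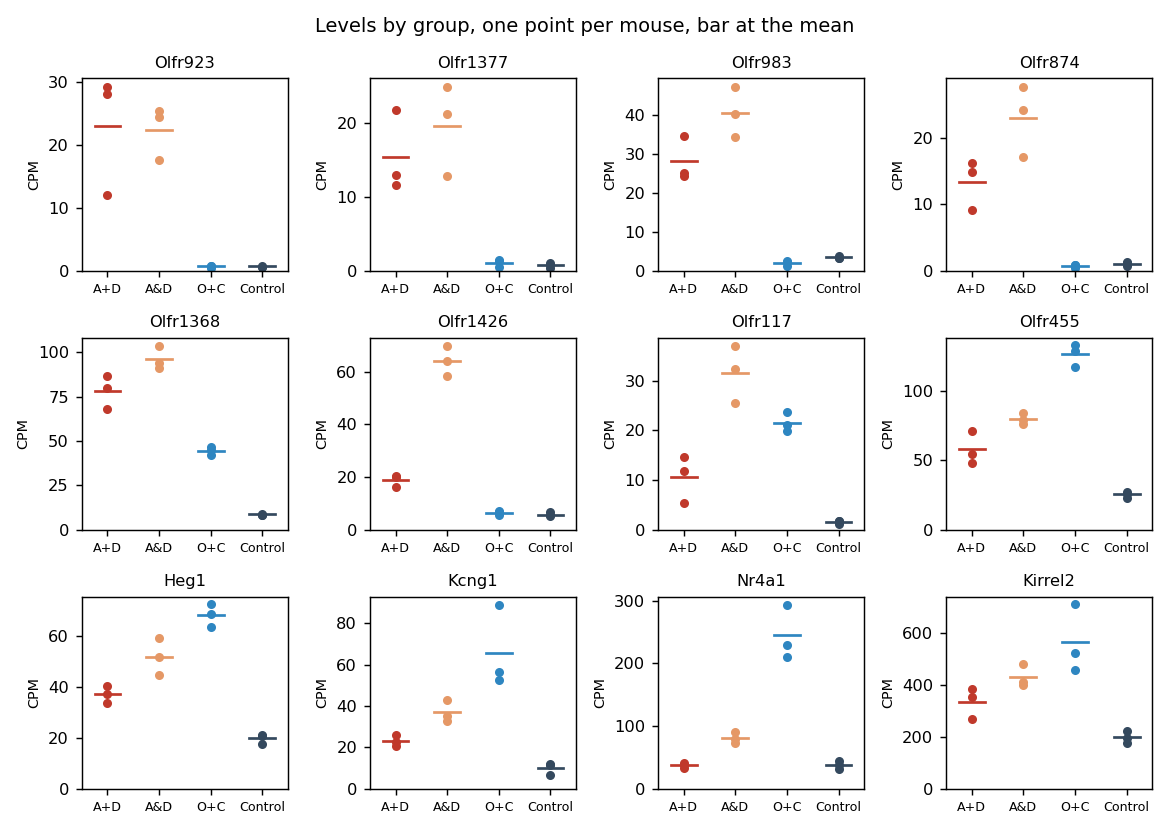
CPM (vertical axis, from 0) of 12 genes in A+D, A&D, O+C and Control, 1 point per mouse with a bar at the mean of 3. Olfr923, Olfr1377, Olfr983 and Olfr874 were high in A+D and A&D and low in O+C and Control. Olfr983 in O+C, at 1.24 to 2.45 CPM, lay below its Control range of 3.19 to 3.64 CPM. Olfr1426 stood at 16.3 to 20.3 CPM in A+D and 58.4 to 69.8 CPM in A&D. Nr4a1 in A+D, at 33.5 to 41.0 CPM, stayed within the Control range.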

How the data were processed

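The authors deposited expected counts per gene, estimated counts that need not be whole, without normalization by library size. STAR 2.7.10b, Salmon 1.10.1, R 4.4.2 and build GRCm39 are named per the submitters' processing notes. The libraries were stranded mRNA libraries sequenced on an Illumina NovaSeq, per the labels' protocols. The annotation and the strand setting of the quantification are not given in the sources used here, so reads of overlapping genes may be mixed. Precipitation keeps RNA on phosphorylated ribosomes, so a level reflects both RNA abundance and capture.

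Counts were rounded. Genes were filtered by filterByExpr (minimum count 10), libraries scaled by TMM, and 1 model with a mean per group fitted over all 15 libraries by edgeR 4.0.16 in R 4.3.3 (robust quasi-likelihood F test, two-sided). P-values were adjusted over all 19229 genes by the Benjamini-Hochberg method at 0.05. CPM are TMM-scaled. The common dispersion was 0.0336. The code was tested on simulated data. Members, lists and tests were chosen with earlier results of these data known. P-values measure the spread between these libraries, and counting intervals cover counting error only.

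Receptors are Olfr symbols without a pseudogene suffix (52029 of 57010 identifiers had a symbol). Counts were called whole within 0.0005. Families came from MOR synonyms, with class I up to family 42. Coding sequences of at least 750 bases were compared with blastn 2.17.0 over at least 0.8 of their length, in place of the planned protein comparison, for which no protein table was at hand. Gene order came from RefSeq genes of another build, so no positions are given. Named genes follow fixed rules of rank: the 15 called receptors of largest rise without overlap, the 5 of highest CPM, other genes called, members of 3 lists, the 3 list members of highest CPM, the 5 genes of smallest adjusted p per direction in the other comparisons, and neighbours or relatives; further ones are named as examples after their values were seen. Alternatives were other scalings, no count filter, DESeq2 1.42.0, the 6 libraries alone, a replicate block and single libraries left out.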

Additional observations from a re-analysis of the deposited data

Results flagged for a closer look

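The difference between A+D and A&D, that is, between the same odorants on a single paper and on separate papers, was itself tested for every gene that had been examined against Control, and 8 of the 46 receptors that rose and Nr4a1 passed the edgeR test. The log2 difference of A+D minus A&D was -1.77 for Olfr1426, -1.32 for Olfr776, -1.93 for Olfr479, -1.70 for Olfr716, -2.15 for Olfr1383, -1.18 for Olfr1420, -2.09 for Olfr904 and -1.67 for Olfr55. For Nr4a1 it was -1.09. In all 8 receptors each A+D library was below each A&D library and above each Control library. The 8 were called by both tests on the same A+D libraries, so this order largely follows from how they were chosen. Olfr55 had 6.63, 20.9 and 16.2 CPM in A+D, against 61.9, 39.0 and 38.6 CPM in A&D. Olfr1383 had 6.55, 10.5 and 7.79 CPM in A+D, against 30.8, 37.7 and 41.3 CPM in A&D, and Olfr904 had 1.59, 1.82 and 0.897 CPM in A+D, against 6.67, 6.37 and 5.34 CPM in A&D. Olfr716 had 15.9, 22.0 and 22.3 CPM in A+D, against 75.6, 65.6 and 53.5 CPM in A&D, and Olfr1420 had 16.8, 18.4 and 18.1 CPM in A+D, against 40.6, 40.1 and 39.6 CPM in A&D. Of the 8, Olfr1426, Olfr479, Olfr716, Olfr1383 and Olfr55 had fractional counts in the majority of libraries. Olfr479, Olfr1383, Olfr904 and Olfr55 lost their call against Control when certain single libraries were left out. Olfr55 was close to the threshold against A&D (edgeR adjusted p = 0.0475).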

How the results depend on the processing

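The 46 receptors all stayed called with DESeq2 size factors, with scaling on receptors alone, without the count filter, with the replicate block and with DESeq2's own test; 34 of them stayed called with the 6 libraries fitted alone and 34 without Control 1 and A+D 2. Without the count filter edgeR called 73 receptors higher and 12 lower, 503 other genes higher and 292 lower, and 208 genes between A+D and A&D. DESeq2 called 1 receptor lower, 66 other genes higher and 101 lower, and 43 genes between A+D and A&D. Scaling on receptors alone gave 12 other genes higher and 0 lower, and 13 genes between A+D and A&D. The 6 libraries alone gave 0 other genes lower, 10 genes between A+D and A&D, and 37 receptors higher than in O+C. Leaving out Control 1 and A+D 2 gave 2 other genes higher and 2 lower. With single libraries left out, receptors lower in A+D than in Control numbered 0 to 3, other genes higher 1 to 342 and lower 0 to 173 (the high ends without A+D 1), genes called between A+D and A&D 10 to 19, and receptors higher than in O+C 38 to 73. The receptor share of counts kept its direction under every alternative run, at 0.0444 percentage points in the report, 0.0197 (without A+D 3) to 0.0774 (without A+D 2) with single libraries left out, 0.0280 without Control 1, and 0.0611 without Control 1 and A+D 2, an alternative chosen after seeing the data.

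The labels do not say whether a replicate number marks a shared day or litter. Deviations of same-numbered A+D and Control libraries correlated at -0.0883, -0.206 and 0.0362, which are too few values to decide whether such a pairing existed. With a replicate block 47 receptors rose, and 3 other genes rose and 1 fell, all 4 among the 12 called without it. Nr4a1 in A+D against Control had no stable sign, with log2 values of -0.0029 with DESeq2 size factors and with DESeq2, -0.0069 without the filter, -0.016 with the 6 libraries alone and -0.11 to 0.13 with single libraries left out. Cbr2, a sustentacular marker, had 0.13 with scaling on receptors alone and -0.21 to 0.068 with single libraries left out. The causes of these changes were not tested. Below about 1 CPM, as for Olfr51 or Olfr904, few counts limit the precision.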

Other observations

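Enzymes that handle inhaled chemicals lay slightly lower in A+D. Of 58 tested xenobiotic metabolism enzymes (cytochromes, transferases and oxygenases) 15 had a positive log2 fold change, the median was -0.17, and the summed level was 9732 to 11306 CPM in A+D, against 11648 to 13800 CPM in Control. For 35 aldehyde and alcohol metabolism enzymes, of interest because decanal is an aldehyde, 6 had a positive value, the median was -0.22 (-0.15 without Control 1), and the summed level was 5508 to 6134 CPM in A+D, against 6176 to 7084 CPM in Control. No member of either list was called by edgeR, while 15 and 7 were lower at an unadjusted p below the threshold and DESeq2 called only Fmo5, lower. Adh1 had 879, 759 and 744 CPM in A+D, against 1044, 1031 and 883 CPM in Control. Markers of sustentacular cells, which hold many of these enzymes, were lower in the same libraries. Several of those markers are themselves such enzymes (Cyp2g1, Cyp2a5, Cyp1a2 and Ugt2a1), so the lists are not separate observations. The part of these cells was not tested.

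Nuclear oxidative phosphorylation genes were at a median of 0.42 on the log2 scale, 68 of 79 being positive, and cytosolic ribosomal protein genes at 0.39, 83 of 85 being positive, and A+D 2 was the highest library for both. Without A+D 2 these medians were 0.13 and 0.023, and without Control 1 and A+D 2 they were 0.045 and -0.094, in the same order. None was called by edgeR or DESeq2, while 44 and 12 were higher at an unadjusted p below the threshold. The S6 kinase and mTOR pathway genes had a median of 0.08 with no stable sign (-0.017 when A+D 2 was left out, 0.0054 for Control 2 and 0.012 for Control 3) and summed levels of 1219 to 1273 CPM in A+D and 1222 to 1278 CPM in Control, with none called by either tool and 1 higher and 1 lower at an unadjusted p below the threshold. Feedback regulators of MAPK and cAMP signalling had a median of -0.10, which was 0.04 with libraries scaled on receptors alone and -0.18 to -0.06 with single libraries left out, with none called by either tool and 1 higher and 4 lower at an unadjusted p below the threshold. Mitochondrially encoded transcripts had a median of 0.61 (0.30 without A+D 2, and 0.20 without Control 1 and A+D 2), with none called by either tool or at an unadjusted p below the threshold.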
